A study of Mus musculus with 9 samples.

Results

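The genes described here encode 10 enzymes and enzyme subunits of threonine, glycine and serine metabolism, namely Tdh, Gcat, Gldc, Amt, Gcsh, Shmt1, Shmt2, Phgdh, Psat1 and Psph. The set was chosen by the signal of Tdh, which was lower in knockout than in wild-type stomach in these same arrays, and the other 9 genes were added as its pathway neighbours. The contrast of knockout with wild type is therefore given for these 10 genes as a description and not as a test. All 10 were found on the array, read by 17 probes, out of 21722 genes tested in all, and all 10 passed the filter on dim probes.

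The samples were whole stomachs of newborn mice killed at birth, 5 labelled as C/EBPbeta KO (KO 1 to KO 5) and 4 labelled WT (WT 1 to WT 4), each hybridised to 1 single-colour Agilent array. C/EBPβ, encoded by Cebpb, is a leucine zipper transcription factor. The labels name 1 mouse per array and give no strain, no litter, no sex and no description of the deleted sequence, and one label field calls the mice old where the protocol places them at birth. The title of WT 4 has a letter in its animal number, which no other title has, and its meaning is not stated. Whole stomach mixes glandular and squamous epithelium with muscle, so fewer cells of a type and less RNA per cell cannot be told apart in any value below.

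Threonine dehydrogenase (Tdh) oxidises threonine in mitochondria to a short-lived keto acid, which Gcat splits with coenzyme A into glycine and acetyl-CoA. In mice Tdh is known for its high activity in embryonic stem cells. Glycine is broken down by the mitochondrial glycine cleavage system, which passes its one-carbon unit to folate, and serine and glycine are converted into each other by the Shmt enzymes. Serine itself is made from a glycolytic intermediate in consecutive steps by Phgdh, Psat1 and Psph.

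Tdh was read by 2 probes of 60 bases from transcript NM_021480, which begin at positions 1678 and 1639 of it. On the mm9 build they lie on the minus strand at chr14:64111327-64111386 and chr14:64111366-64111425. They overlap by 21 bases, printed here in capitals, so they are not independent readings of the gene. They are shown because the gene's whole reading rests on this short stretch.
Tdh probe A_51_P143712: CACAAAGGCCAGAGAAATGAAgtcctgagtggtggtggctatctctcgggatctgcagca
Tdh probe A_55_P2078960: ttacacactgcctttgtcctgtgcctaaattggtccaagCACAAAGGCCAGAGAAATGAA

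Tdh, the mitochondrial enzyme that starts this route of threonine breakdown, fell to 36.0% of its wild-type level in knockout stomachs, a 2.78-fold drop. It was the 1 of the 10 genes called across all genes, where 0.203% of all genes tested were called. Because this fall chose the set, the call is a description and lends no support. The call was lost with slide or replicate number as a block, with Y-linked signal as covariate and without WT 1. Under these the difference stayed between −1.55 and −1.33. The scanner's processed signal of its first probe was 258, 291, 554, 363 and 401 in the knockout stomachs and 1111, 768, 693 and 728 in the wild-type ones (values per array are listed by mouse number throughout). Every knockout array read below every wild-type array even before the arrays were scaled to each other. Levels below are log2 of this signal minus the array's own 75th percentile, so a level of 0 is the signal that 3 in 4 spots stay under.

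On that scale Tdh stood at −0.18, 0.03, 0.23, −0.33 and −0.19 in the 5 knockouts and at 1.43, 1.16, 1.22 and 1.72 in the 4 wild types. The knockout arrays spanned less than 0.6 and the gap from the highest of them to the lowest wild-type array was wider than either group's own range. The mean was −0.091 ± 0.22 (SD, n = 5) in knockout and 1.38 ± 0.25 (SD, n = 4) in wild type, a difference of −1.47 ± 0.17 (limma SE). The second probe read −1.37 ± 0.30 (SD, n = 5) in knockout and 0.030 ± 0.26 (SD, n = 4) in wild type, a difference of −1.40, again with no overlap of the groups. Both probes put KO 3 highest among the knockouts and WT 4 highest among the wild types.

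**Figure D1:**
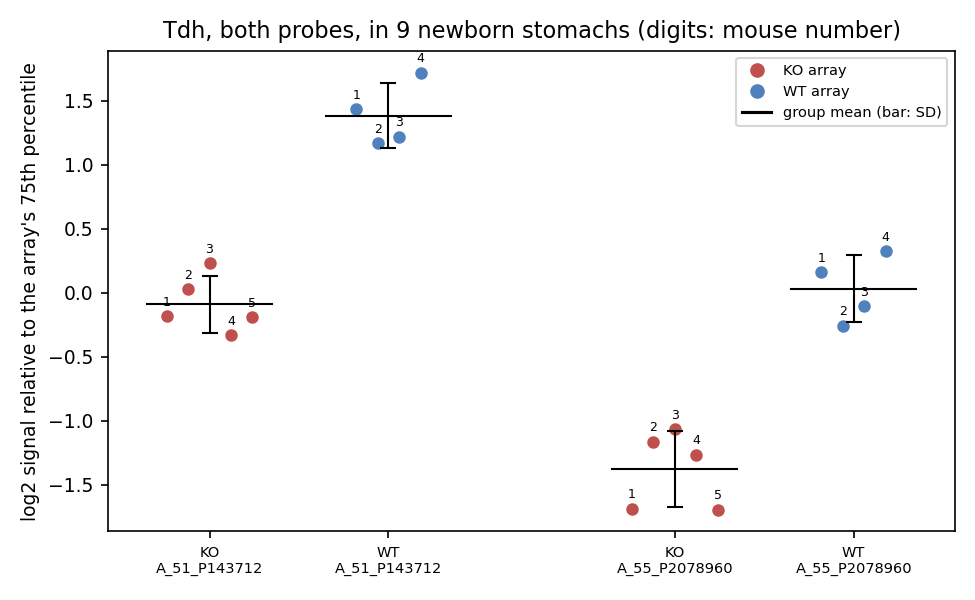
Levels of Tdh (y axis, log2 signal relative to the array's 75th percentile) for each of its probes in knockout and wild-type stomachs, 1 point per mouse with its number, black lines for the group mean and bars for the SD. For both probes the 5 knockout points lie below all 4 wild-type points.

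Gcat, the enzyme directly after Tdh, had means of 3.33 ± 0.31 (SD, n = 5) in knockout and 3.34 ± 0.53 (SD, n = 4) in wild type. It read 3.25, 3.63, 3.62, 3.29 and 2.87 in the 5 knockouts and 3.74, 3.48, 3.58 and 2.56 in the 4 wild types. The groups overlapped fully, the lowest reading of all being WT 4, and the difference was −0.0070 ± 0.26 (limma SE). Without WT 4 it was −0.27 ± 0.20, still smaller than the knockout SD of 0.31.

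Across the 10 genes, 6 were lower and 4 higher in knockout, with a median difference of −0.089 where the median over all genes was 0.0049. Without WT 4, 8 were lower and 2 higher, with a median of −0.19 beside 0.032 over all genes. The signs of Gcat, Amt, Gcsh, Shmt1 and Psph turned under 1 or more of the alternatives or within a slide, while Tdh, Shmt2, Phgdh and Psat1 read lower and Gldc higher in knockout under all that were run. Called by limma at an adjusted p below 0.05 was 1 of the 10, Tdh, where 0.203% of all genes tested were called. The knockout arrays lay wholly on one side of the wild-type arrays for 1 of the 10, again Tdh, where this held for 3.38% of all genes. Nothing is read from these counts, since the same contrast chose the set.

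**Figure D2:**
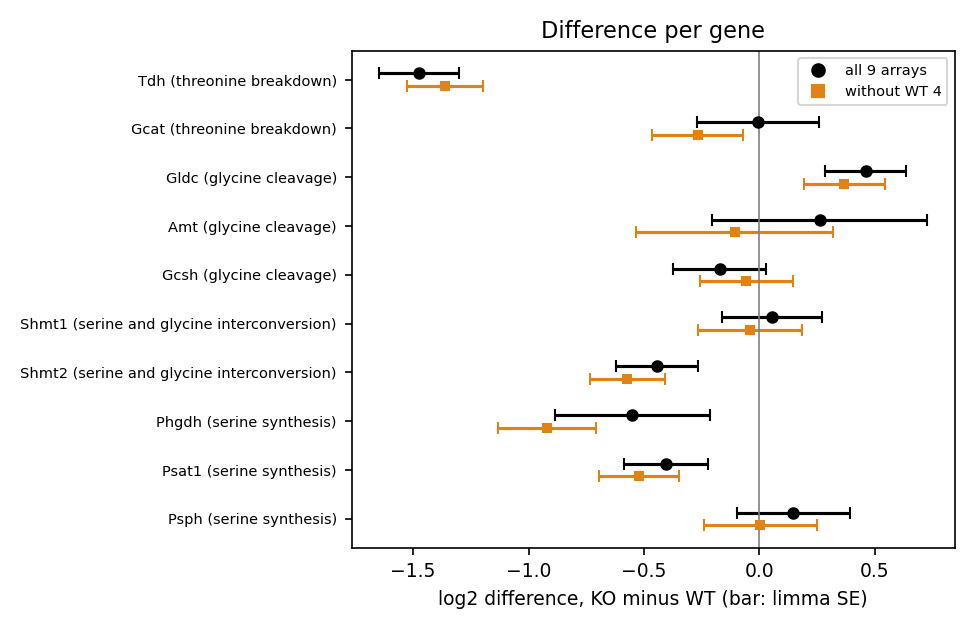
Difference between knockout and wild type (x axis, log2, with limma SE as bars) for the 10 genes, over all 9 arrays (black) and without WT 4 (orange). Tdh lies at −1.47, the other 9 between −0.55 and 0.46, and Phgdh moves from −0.55 to −0.92 without WT 4.

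Of the glycine cleavage system, Gldc, the decarboxylase that takes up glycine, read higher in knockout. Its levels were 2.82, 3.08, 3.09, 2.65 and 2.97 in the 5 knockouts and 2.85, 2.51, 2.30 and 2.18 in the 4 wild types. Of the wild-type arrays WT 1 reached into the knockout range and the other 3 lay below it. The difference was 0.46 ± 0.18 (limma SE, 1.38-fold) and did not pass the test. It was 0.57 and 0.40 within the slides that held both genotypes, and 0.37 ± 0.17 without WT 4.

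Gcsh, the carrier protein of the glycine cleavage system, differed by −0.17 ± 0.20 on the brightest of its 3 probes. Its levels there ran from 3.39 to 4.19 in knockout and from 3.82 to 4.41 in wild type. Its second bright probe gave −0.21, and the third, well above background on only 5 of 9 arrays, gave 0.26. The direction of Gcsh was not the same on both slides, being −0.49 within one and 0.18 within the other. Amt, the aminomethyltransferase that passes the one-carbon unit to folate, was near the detection limit, being well above background on 4 of 5 knockout and 2 of 4 wild-type arrays. Its processed signal ran from 16.2 to 38.0 in knockout and from 4.85 to 33.4 in wild type, so its difference of 0.26 ± 0.47 is uncertain in size and in sign, reading −0.16 with the normexp background correction, −0.046 without KO 2 and −0.11 without WT 4. None of the 3 subunits passed the test.

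Shmt2, the mitochondrial serine hydroxymethyltransferase, read lower in knockout. Its levels were 1.42, 1.60, 1.97, 1.91 and 1.80 in the 5 knockouts and 2.25, 2.31, 2.38 and 1.80 in the 4 wild types. WT 4 lay inside the knockout range while WT 1 to WT 3 lay above all of it, and the difference was −0.44 ± 0.18 (limma SE, 1.36-fold), which did not pass. It was −0.24 and −0.67 within the slides. Shmt1, the cytosolic form, differed by 0.054 ± 0.22, with −0.061 on its second probe. Its levels ran from −1.22 to −0.34 in knockout and from −1.16 to −0.62 in wild type, so the groups overlapped throughout.

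Phgdh and Psat1, the genes of the initial steps of serine synthesis, were each read by 2 probes that share no base. They are shown because the readings of WT 4 can be compared between the probes of a gene. The Psat1 probes begin at positions 2226 and 750 of the transcript and read separate stretches. Those of Phgdh begin at positions 1690 and 1603, close to each other, so they are not independent readings. On mm9 the Phgdh probes lie on the minus strand at chr3:98117215-98117274 and chr3:98117303-98117361, and those of Psat1 on the minus strand at chr19:15979622-15979681 and chr19:15991586-15991645.
Phgdh probe A_55_P2046262: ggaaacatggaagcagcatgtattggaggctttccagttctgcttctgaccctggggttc
Phgdh probe A_55_P2143041: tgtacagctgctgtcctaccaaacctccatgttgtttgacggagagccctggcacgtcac
Psat1 probe A_55_P2052290: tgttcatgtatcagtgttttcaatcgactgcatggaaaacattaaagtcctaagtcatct
Psat1 probe A_66_P121495: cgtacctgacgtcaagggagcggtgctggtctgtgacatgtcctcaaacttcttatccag

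Phgdh, the dehydrogenase that commits carbon from glycolysis to serine, read 2.54, 2.73, 3.13, 3.09 and 2.27 in the 5 knockouts and 3.61, 3.66, 3.76 and 2.19 in the 4 wild types. WT 1 to WT 3 agreed within 0.15 and lay above every knockout array, whereas WT 4 lay below every one. Over all arrays the difference was −0.55 ± 0.34 (limma SE, 1.46-fold). Without WT 4 it was −0.92 ± 0.21 (1.89-fold), which did not pass either. Its second probe gave −0.52 over all arrays and showed the same arrangement, with WT 4 at 1.50 against 3.36, 3.36 and 3.47 on the other wild types.

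Psat1, the aminotransferase of the next step, also read lower in knockout. Its levels were 2.94, 2.90, 3.33, 2.83 and 2.59 in the 5 knockouts and 3.48, 3.41, 3.43 and 2.97 in the 4 wild types. WT 4 lay inside the knockout range and WT 1 to WT 3 above all of it. The difference was −0.41 ± 0.18 (limma SE, 1.32-fold), and −0.52 ± 0.17 without WT 4, neither past the test. Its second probe, which begins at position 750 of the transcript instead of 2226, gave −0.48, with WT 4 at −1.85 below every knockout array and the other wild types at −0.44, −0.38 and −0.41 above them all. Psph, the phosphatase of the last step, did not follow them, with a difference of 0.15 ± 0.24 and knockout levels from 0.68 to 1.72 against wild-type levels from 0.47, on WT 4, to 1.18. Within slides Psph differed by 0.35 on one and −0.41 on the other.

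**Figure D3:**
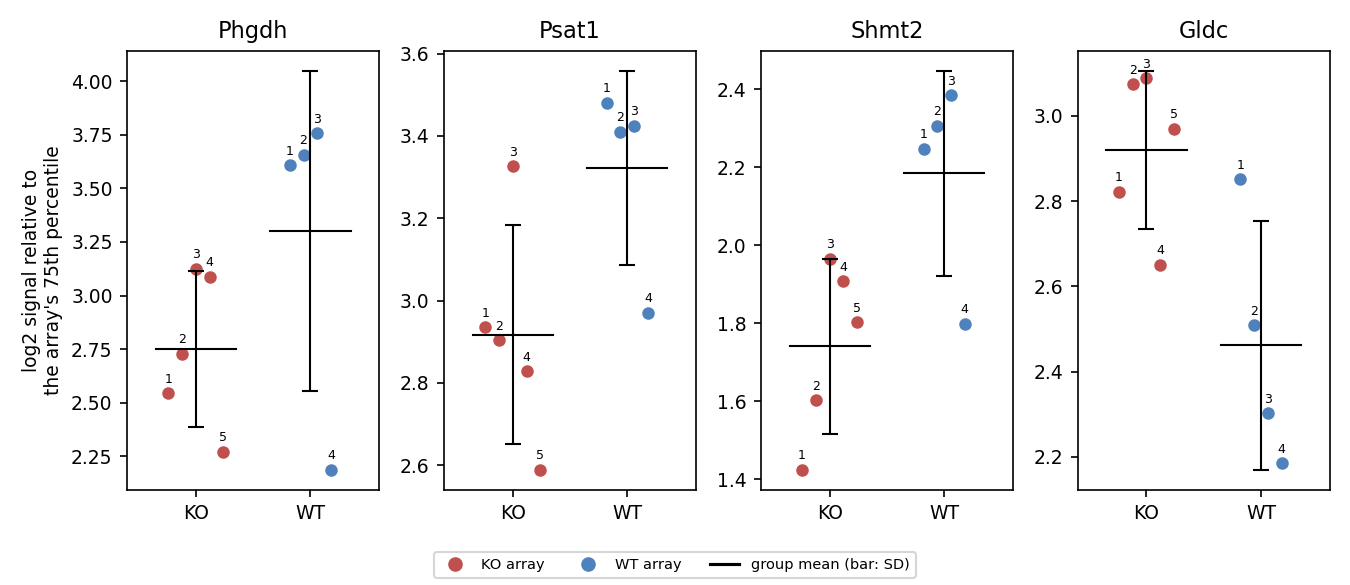
Levels (y axis, log2 signal relative to the array's 75th percentile) of Phgdh, Psat1, Shmt2 and Gldc per mouse, with the group mean and SD. For Phgdh, Psat1 and Shmt2 the points of WT 1 to WT 3 lie above all knockout points and WT 4 lies below them for Phgdh and among them for Psat1 and Shmt2, while for Gldc WT 4 is the lowest point of all.

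The array of WT 4 held the lowest wild-type level in 8 of the 10 genes and the highest in the other 2, Tdh and Gcsh. Relative to the mean of WT 1 to WT 3 it read −1.49 for Phgdh, −1.04 for Gcat, −0.51 for Shmt2, −0.47 for Psat1 and 0.45 for Tdh. Its median distance from WT 1 to WT 3 was 0.491 over the 10 genes and 0.496 over all genes. Without WT 4, 4 of the 10 genes had knockout arrays wholly on one side of wild type, namely Tdh, Shmt2, Phgdh and Psat1, where this held for 12.3% of all genes. Called without WT 4 was again 1 of 10, Tdh at −1.36 ± 0.16, where 0.741% of all genes were called.

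Marker genes of cell types showed the same array apart. The summed signal of 7 proliferation genes, all detected and led by Mki67, was 24.3 times the 75th percentile on WT 4 against 54.0 to 57.1 on the other wild types and 35.6 to 46.8 in knockout. That of 9 squamous genes (all detected) was 509 on WT 4, 1140 to 1504 on the other wild types and 411 to 1110 in knockout. That of 9 glandular genes (all detected) ran from 1113 to 1820 in wild type, highest on WT 4, and from 1445 to 2345 in knockout. The 6 smooth muscle genes (all detected) ran from 1259 to 2022 and from 896 to 1438. Without WT 4, the glandular, squamous, smooth muscle and proliferation sums, and the intestinal sum given below, did not overlap between genotypes. The same held for 12.3% of all genes taken singly and in log2, which is not a rate for such sums. The liver, pancreatic, and spleen and blood sums given below did overlap. Of the sums that did not, the glandular and intestinal ones were higher in knockout. The squamous, smooth muscle and proliferation sums were lower. Each sum adds signal that is not in log2, so its brightest genes weigh most, in the glandular list Tff1, Gkn2 and Atp4b. Of all marker genes 1 was called, where 0.203% of all genes tested were. This was Gkn2, a gastrokine of gastric surface cells, at 1.77 ± 0.25 (limma SE). The part of these cell types in the levels of Tdh, Phgdh, Psat1 or Shmt2 was not tested.

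For organs that could be carried along with the stomach, 7 liver genes (of 8 listed, all 7 detected) summed to 16.8 to 41.1 in wild type and 18.2 to 49.6 in knockout, highest on KO 2 and WT 4. The 10 pancreatic genes summed to 1.67 to 8.41 in wild type, highest on WT 4, and to 1.53 to 3.91 in knockout, with Prss2 and Pnlip not well above background on any array. The 7 intestinal genes (all detected) ran from 5.67 to 7.14 on WT 1 to WT 3, reached 12.1 on WT 4 and ran from 10.2 to 17.5 in knockout. The 6 genes of spleen and blood (all detected) ran from 64.8 to 74.4 in wild type and from 71.6 to 133 in knockout. The part of these cells in the levels above was not tested.

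The labels were checked with Cebpb, whose 1 probe fell to 2.24% of wild type (−5.48 ± 0.30, limma SE), with levels from −2.87 to −1.58 in knockout and 3.00 to 3.71 in wild type. Whether this probe lies in the deleted part is not stated by any label. The arrays came from 4 slides. One held KO 4, KO 5, WT 3 and WT 4, another KO 2, WT 1 and WT 2, and the other two held KO 3 and KO 1 alone. Tdh differed by −1.73 within the first and by −1.27 within the second. With slide as a block the difference was −1.55 ± 0.22, and 5 genes in all passed the test. KO 1 and KO 3 carried Y-linked signal as all wild types did and the other 3 knockouts did not. The knockouts that shared a slide with wild types, KO 2, KO 4 and KO 5, were thus those without Y-linked signal. In every within-slide and slide-block difference given here, for Tdh and for the other genes, genotype and Y-linked signal cannot be told apart. Of the Tdh levels, that of KO 1 (−0.18) lay among those of KO 2, KO 4 and KO 5, and that of KO 3 (0.23) was the highest of the knockouts. With Y-linked signal as covariate the Tdh difference was −1.33, short of the threshold. Leaving out WT 1 also lost the call, at −1.46.

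Other genes of these pathways were examined as 6 lists of 82 genes, of which 75 were tested, and 0 were called (limma, 10 at an unadjusted p below 0.05). Lower in knockout were 44 and higher 31, with a median difference of −0.063, where 10673 were lower and 11049 higher over all genes. Over all genes 0.203% were called and 8.72% had an unadjusted p below 0.05. The knockout arrays lay wholly on one side of wild type for 4 of the 75, namely Atf5, Slc7a10, Mthfd1l and Eif4ebp1, where this held for 3.38% of all genes. With quantile normalization or with a robust, trended variance 1 gene, Atf5, was called, and without WT 4 again 0.

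Atf4 is the transcription factor of the amino acid response. The list of Atf4 and other genes of that response had the most negative median of the 6 lists, −0.27 over 15 genes, of which 10 were lower, and −0.16 without WT 4. Over all genes the median was 0.0049. Of the 15, 5 had an unadjusted p below 0.05 (limma), in both directions, and 2 had groups that did not overlap. The shares over all genes were 8.72% and 3.38%. Atf4 itself differed by −0.012 ± 0.17. Atf5, a related leucine zipper factor, read 4.42, 4.34, 4.46, 3.99 and 3.81 in the 5 knockouts and 5.08, 5.21, 5.09 and 5.23 in the 4 wild types. The groups of Atf5 did not overlap and WT 4 stood with the other wild types, and its difference of −0.95 ± 0.17 missed the threshold (limma adjusted p = 0.0848). It was −1.26 and −0.81 within the slides and −0.92 without WT 4. Aldh18a1, which makes the precursor of proline, differed by −0.62 ± 0.21 (limma adjusted p = 0.422) and Atf3, a stress-induced factor, by 1.13 ± 0.41 (limma adjusted p = 0.474). Asns, the asparagine synthetase that the response classically raises, differed by 0.22 ± 0.19. The lowest value of the list, −1.66 ± 0.72, was that of Slc7a11, a cystine and glutamate exchanger gene, which was well above background on 1 of 5 knockout and 3 of 4 wild-type arrays.

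Of 17 folate one-carbon genes tested, 13 were lower, with a median of −0.14, where 10673 of 21722 genes were lower over all. Among the 17, 1 had an unadjusted p below 0.05 (limma), where 8.72% of all genes did. Mthfd1l, the mitochondrial formate-releasing enzyme, differed by −0.41 ± 0.15 and the purine synthesis enzyme gene Atic by −0.37 ± 0.20, neither past the test. Of 13 transporter genes, 7 were lower and 6 higher. Slc7a10, a carrier of small neutral amino acids, differed by −0.71 ± 0.20 (limma adjusted p = 0.305), Slc1a4, which carries serine and threonine, by −1.22 ± 0.40 (limma adjusted p = 0.414) and the glycine transporter gene Slc6a9 by 0.31 ± 0.15. Slc1a4 read −0.092 ± 0.62 (SD, n = 5) in knockout and 1.13 ± 0.76 (SD, n = 4) in wild type, so its spread within groups was wide.

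Of 20 genes that use serine, glycine or threonine, 12 were higher and 8 lower, with a median of 0.029. Chdh, the choline dehydrogenase gene, differed by 0.39 ± 0.16 and Cth, which makes cysteine from cystathionine, by 0.63 ± 0.27. Agxt, a transaminase that makes glycine from glyoxylate, differed by −1.52 ± 0.92 but was well above background on 1 of 5 knockout and 3 of 4 wild-type arrays. Sds, the other classical enzyme of serine and threonine breakdown, was among the 7 listed genes too dim to test. Among the 4 genes for the shared subunit Dld and for lipoylation, Dld differed by 0.21 ± 0.16, Lipt1 by −0.25 ± 0.20 and Lipt2 by −0.064 ± 0.23. The 6 synthetases that load threonine, serine or glycine onto tRNA lay between −0.28 and 0.093, with Sars at −0.23 ± 0.13, Sars2 at −0.28 ± 0.25 and Tarsl2 at 0.093 ± 0.14. None of these passed the test.

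**Figure D4:**
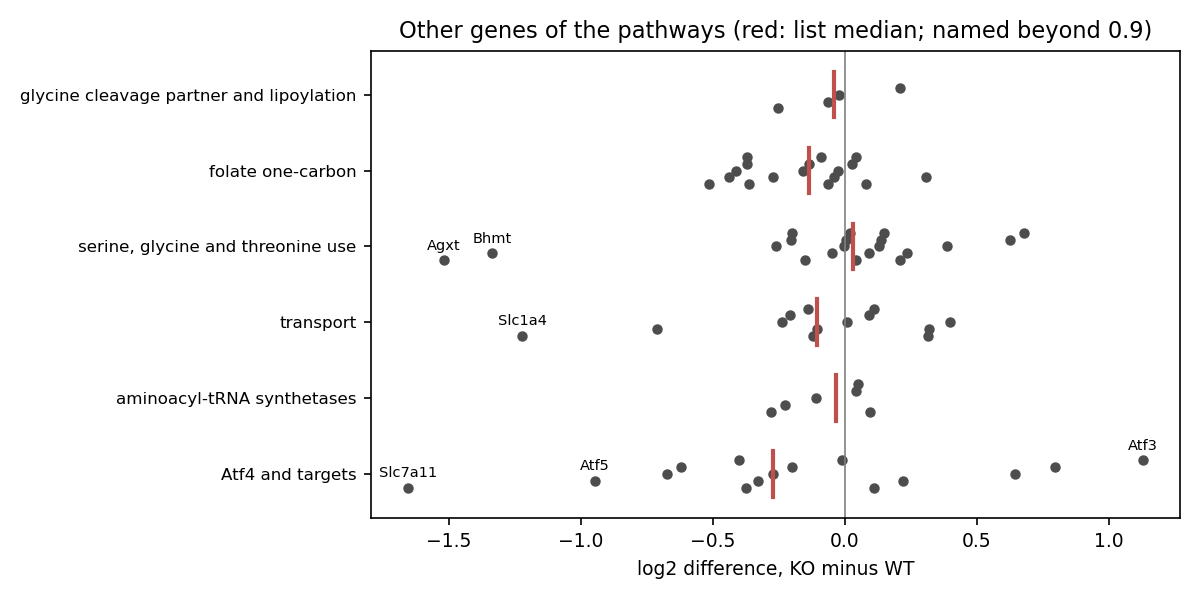
Difference between knockout and wild type (x axis, log2) for each tested gene of the 6 pathway lists (rows), with the list median as a red line and genes beyond 0.9 in size named. The medians lie between −0.27 and 0.029, and no point passed the limma threshold.

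Of 16 other genes (1 of them an unnamed probe) tested within 1 Mb of the Tdh probe on chromosome 14, 0 were called by limma, where 0.203% of all genes were, and 1 had an unadjusted p below 0.05, where 8.72% of all genes did. Of the 16, 9 were lower and 7 higher, and the median difference was −0.053. The nearest, Mtmr9, a myotubularin-related gene 31.2 kb away, differed by −0.36 ± 0.16, and 2700008G24Rik at 173.5 kb by −0.15 ± 0.23. On the other side Gata4, a transcription factor gene of foregut development at −293.5 kb, differed by 0.42 ± 0.26 and the DNA repair gene Neil2 at −310 kb by 0.093 ± 0.29. None of the 16 had knockout arrays wholly on one side of wild type, where this held for 3.38% of all genes.

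**Figure D5:**
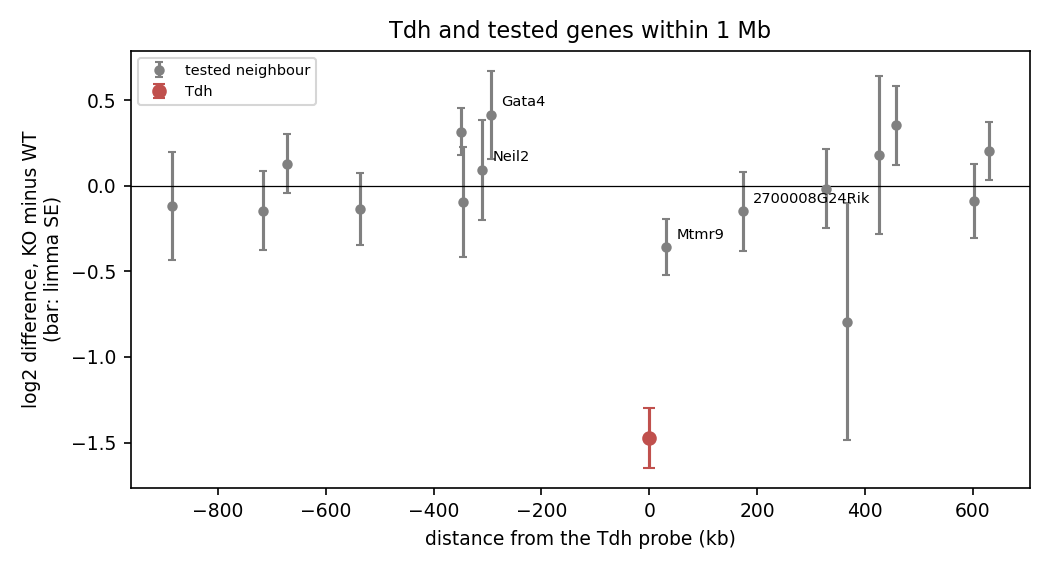
Difference between knockout and wild type (y axis, log2, limma SE as bars) against the distance from the Tdh probe (x axis, kb) for Tdh in red and the 16 tested genes within 1 Mb in grey. Tdh lies at −1.47 and its neighbours between −0.79 and 0.42.

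The genes whose profile over the 9 arrays was most like that of Tdh, by the root mean square difference of levels taken relative to each gene's wild-type mean, were Rprd1b (0.34), Pusl1 (0.35), Nppa (0.37), Cptp (0.38) and Dusp9 (0.39). They differed between genotypes by −1.37 ± 0.27, −1.18 ± 0.17, −1.60 ± 0.17, −1.65 ± 0.20 and −1.11 ± 0.23, in that order. Differences near that of Tdh were fixed by the choice, which took likeness to Tdh over these same arrays, so nothing is read from them. Pusl1, Nppa and Cptp lie on chromosome 4, Rprd1b on chromosome 2 and Dusp9 on the X chromosome, none of them with Tdh. On WT 4, Tdh stood 0.33 above its wild-type mean, and Rprd1b stood 0.75 above, whereas Nppa stood −0.35 and Cptp −0.45 from theirs.

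Promoter sequence from RefSeq (GRCm38.p6, 250 bases before to 50 after the start site) covered 9 of the 10 genes with 10 windows, Tdh being the one without an entry. The C/EBP palindrome TTGCGCAA was found in 0 of the 10 windows, where 0.183% of 32851 promoters hold it. The element TGATGNAA, read by heterodimers of C/EBP and ATF factors, was found on either strand in 0 of the 10, where 3.97% of all promoters hold it. Both motifs were searched on both strands and neither contains the other. These counts say only that the letters are not in these windows.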

How the data were processed

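Total RNA of 9 stomachs was reverse transcribed with oligo dT and the cDNA carried Cy3, per the labels' protocols. The deposited spot intensity was made with Feature Extraction 10.5.1.1 per the file headers (the submitters' processing notes name 9.1), with background subtracted and no scaling between arrays. Flags of another kind (well above background, outlier) were set by the same software, per the file headers. The authors' deposited series matrix holds log2 values that followed log2 of the processed signal up to a constant per probe and array (largest deviation 2.03e-06 over 55660 probes), and what its probes were centred on is unknown. Its column medians were 0.0436, 0.217, −0.124, 0.0347 and −0.137 in the knockouts, by mouse number, and −0.279, −0.161, 0.224 and 0.381 in the wild types.

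Controls (3671 of 62976 spots) and outlier spots were left out, spots of a probe averaged, and log2 of the signal was taken minus each array's 75th percentile (221 to 472). No array had a saturated spot, and the share of spots well above background was 50.9% to 57.2%. The number of arrays limits the precision. A probe entered the test if 4 or more of the 9 arrays had it well above background (30188 did), and the brightest such probe stood for its gene. Of 55681 probes, 26762 were named through RefSeq accessions. Groups were compared with limma 3.58.1 in R 4.3.3 (two-sided, no covariate), with Benjamini-Hochberg adjustment over 21722 genes, of which 27 were called higher and 17 lower. The steps were tested on simulated data. Alternatives covered the normalization, the background correction, the deposited matrix, the filter, the choice of probe, the variance model, slide, replicate number, Y-linked signal and leaving out each array.

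The members and lists were chosen with earlier results of these data known. Besides the members, genes were named by a rule, which took Cebpb, every called gene or otherwise up to 3 genes with the smallest p of each pathway list, the nearest 2 tested genes on each side of Tdh, and the 5 genes most like it. Atf4, Asns, Sds, Slc7a11, Eif4ebp1 and Gkn2 were chosen after their values were seen. One gene that the rule would name is not reported here. P-values set the difference between the groups against the spread between these mice, with each gene's variance moderated over all genes. Differences of slide and of Y-linked signal were not taken out in the main fit.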

Additional observations from a re-analysis of the deposited data

Results flagged for a closer look

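In the wild-type group, 1 array stood far from the other 3 for 2 of the 10 genes. The Phgdh level of WT 4 was 2.19, with the nearest other wild type at 3.61 and the highest at 3.76, a gap of 0.905 of the group's range. The Psat1 level of WT 4 was 2.97, with the nearest at 3.41 and the highest at 3.48, a gap of 0.861 of the range. Chance alone gives such a gap in about 1 in 20 groups, and 2 of the 20 groups examined (10 genes in both genotypes) showed one. Both come from the same array, which also held the lowest summed signal of proliferation genes, and the part of the cell make-up of that stomach in either value was not tested.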

How the results depend on the processing

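Tdh was lower in knockout under all 21 alternatives, with differences from −1.27 to −1.73, and it passed the limma threshold in 15 of 19 refits. It did not with slide as a block (−1.55), with the replicate block (−1.45), with the Y-linked level as covariate (−1.33) and without WT 1, and the cause was not tested. Within slide 1 it was −1.73. Leaving out each array gave −1.55 to −1.36. The number of the 10 genes called was 0 in those refits and otherwise 1, so 0 to 1 when leaving out each array, and no other gene of the set was called in any refit. The same-numbered mice did not deviate together (r = −0.305, 0.122, 0.153 and −0.482). No pairing by number was seen, but 4 pairs are too few to exclude one. Genes called over the whole table numbered 44, then 22 with no filter on dim probes, 5 with slide as a block, 4 with the replicate block, 4 with the Y-linked covariate, and 11 (without WT 1) to 161 (without WT 4) when leaving out each array, with 28, 18 and 23 without KO 2, KO 3 and KO 4 and 17 without WT 2 or WT 3. Pathway genes called went from 0 to 1 (Atf5) with quantile normalization and with the robust, trended variance. Genes near Tdh called stayed at 0. Of 188 values of the other 9 genes, 184 moved by less than 1 SD, and the 4 that moved further were within-slide values of Gcsh, Shmt1 and Psph. Dim signal limits Amt.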
